A study of Mus musculus with 6 samples.

Results

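The genes examined here encode the nuclear subunits of mitochondrial complex I and the proteins that help to assemble it, as far as their symbols start with Nduf. Of 55471 gene rows in the count table, 51 carried such a symbol. Of these, 48 are listed as protein-coding, 46 of them in GENCODE M21 and Ndufb1 and Ndufb4c in RefSeq only, and 3 pseudogene rows (Ndufab1-ps, Ndufs6b and Ndufa11b) were left out. The 48 genes comprise 37 subunits, 8 assembly factors (Ndufaf1 to Ndufaf8) and 3 genes outside both classes. The latter are Ndufa4, now counted as a subunit of cytochrome c oxidase, its paralog Ndufa4l2, and Ndufb4c, a copy of Ndufb4. Enough counts for a test were found for 46 genes. Ndufa4l2, with 5 to 12 counts per library, and Ndufb4c, with 1 count in each of 2 libraries, were not tested. The 48 genes lie on 18 chromosomes, and chromosome 17 holds the most, with 6.

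RNA sequencing was done on cultures of primary cortical neurons of CD1 mice (embryonic day 15 at the latest), grown with 2 uM cytosine arabinoside, which stops dividing cells. All cultures were transduced with lentivirus on day 6 and harvested on day 11. The shControl group (genotype label WT) received a control short hairpin RNA, and the shOpa1 group (genotype label Opa1 knock-down) received one directed against Opa1, the mitochondrial GTPase of inner membrane fusion and cristae shape. There were 3 libraries a group, numbered 1 to 3 and given as biological replicates with no further origin, so p-values measure only the spread between these libraries. The labels give 1 hairpin name per group, so the effect of losing Opa1 and other effects of that hairpin cannot be told apart.

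Complex I, NADH:ubiquinone oxidoreductase, takes electrons from NADH, passes them along a flavin and a chain of iron-sulfur clusters to ubiquinone, and pumps protons across the inner membrane. Its peripheral arm is built from an N module, where NADH is oxidised, and a Q module, where ubiquinone is reduced, while its membrane arm is built from modules named after the mitochondrially encoded subunits ND1, ND2, ND4 and ND5. The modules are made separately with the help of assembly factors that are absent from the finished enzyme, and neurons rely heavily on the ATP that follows from its proton pumping.

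Opa1 transcript stood at 201.8, 204.6 and 201.9 CPM in shControl and at 10.2, 8.64 and 8.50 CPM in shOpa1, where CPM is a gene's counts as a share of the library, after TMM scaling. Library totals lay between 24676709 and 32961580 counts. The libraries with the number 3 in either group were set off from the rest on principal component 2 (25.04% of variance), so counts over the subunits, the arms, the assembly genes and the mitochondrial genes are also given for pairs 1 and 2 alone. A pair is the shControl and the shOpa1 library with the same number. The cultures expressed neuronal markers at a summed 6994 to 7446 CPM in shControl and 4645 to 5010 CPM in shOpa1, and 5 of 7 were called lower. Astrocyte markers summed to 24.5 to 88.4 and 11.7 to 34.2 CPM (1 of 6 higher, 2 lower), oligodendrocyte lineage markers to 47.1 to 75.5 and 38.4 to 54.7 CPM (2 of 7 lower). Microglial markers summed to 5.49 to 7.92 and 3.27 to 4.71 CPM. Only Aif1 of these 6 had enough counts for a test, and it was called lower, with means of 5.98 and 2.98 CPM. Markers of endothelial and mural cells summed to 6.88 to 8.31 and 4.64 to 6.57 CPM (4 of 5 tested, 1 lower). Those of dividing cells summed to 0.838 to 9.79 and 1.402 to 2.02 CPM (2 of 5 had enough counts for a test). No marker was at 0 in all libraries. The part of these marker differences in the results on complex I was not tested.

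Changes in nuclear complex I genes after Opa1 knockdown were mostly small, and most of those that passed the test were rises. Apart from Ndufs8, no subunit moved by more than 0.59 in size on the log2 scale. Of 37 subunits, 11 rose and 3 fell in shOpa1 in edgeR's quasi-likelihood test at a Benjamini-Hochberg adjusted p under 0.05. Over all 16562 genes tested, 38.9% were called, 18.9% higher and 20.0% lower. Of the subunits 37.8% were called in this fit, near the share of all genes, with 29.7% higher and 8.1% lower. The subunits that fell were Ndufs8, Ndufv2 and Ndufa3. Of the 8 assembly factors, Ndufaf1, Ndufaf4 and Ndufaf6 rose and 0 fell, also at an unadjusted p under 0.05 and with DESeq2 or limma-voom. These values are shares of a library's RNA, so fewer cells holding a transcript and less of it per cell cannot be told apart.

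The count of subunits that rose was sensitive to how the libraries were grouped, while the 3 falls were called under every setting tried. With the replicate number as a block, 21 subunits rose and 5 fell, beside 28.8% and 30.7% of all genes (59.5% called in all), and 5 assembly factors rose and 1 fell. A fit with replicate 3 as a second batch gave 20 and 5 subunits where it called 56.5% of all genes. Pairs 1 and 2 alone gave 19 subunits higher and 5 lower, and 3 and 0 assembly factors, in a fit that called 50.9% of all genes, 4143 (24.8%) higher and 4353 (26.1%) lower. The count of subunits that rose was 7 without shControl library 1, 7 without shOpa1 library 2 and 17 without shOpa1 library 3. In the authors' deposited table, 20 subunits were higher and 4 lower at an adjusted p under 0.05, beside 20.2% and 20.7% of all genes in it. Scaling by library totals alone shifted the median of all genes by 0.12 on the log2 scale. It then gave 19 subunits higher and 3 lower, beside 42.2% of all genes called, 4487 (27.1%) higher and 2500 (15.1%) lower. Below, calls with and without the block are those of the edgeR fit with TMM scaling and its default filter, and some genes that only the block called of these 2 fits, such as Ndufa9 and Ndufa13, also passed in the authors' deposited table.

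The median log2 fold change (shOpa1 over shControl) was 0.16 over the subunits and 0.19 over the assembly factors, beside -0.01 over all genes tested. Of the 37 subunits, 29 lay above 0. Within pairs, as differences in log2(CPM + 0.5), the subunit medians were 0.17, 0.17 and 0.14 in pairs 1, 2 and 3, and 24 subunits lay above 0 in every pair and 5 below. Over all genes, 36.6% lay above 0 in every pair and 38.2% below. The 3 shOpa1 libraries lay above all 3 shControl libraries for 15 subunits and below them for 3, where 25.8% and 26.0% of all genes did. In summed CPM the subunits stood at 2933, 3053 and 2637 in shControl and at 3249, 3469 and 2954 in shOpa1, so the groups overlapped. The 23 subunits that were not called ranged from -0.19 to 0.37.

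**Figure D1:**
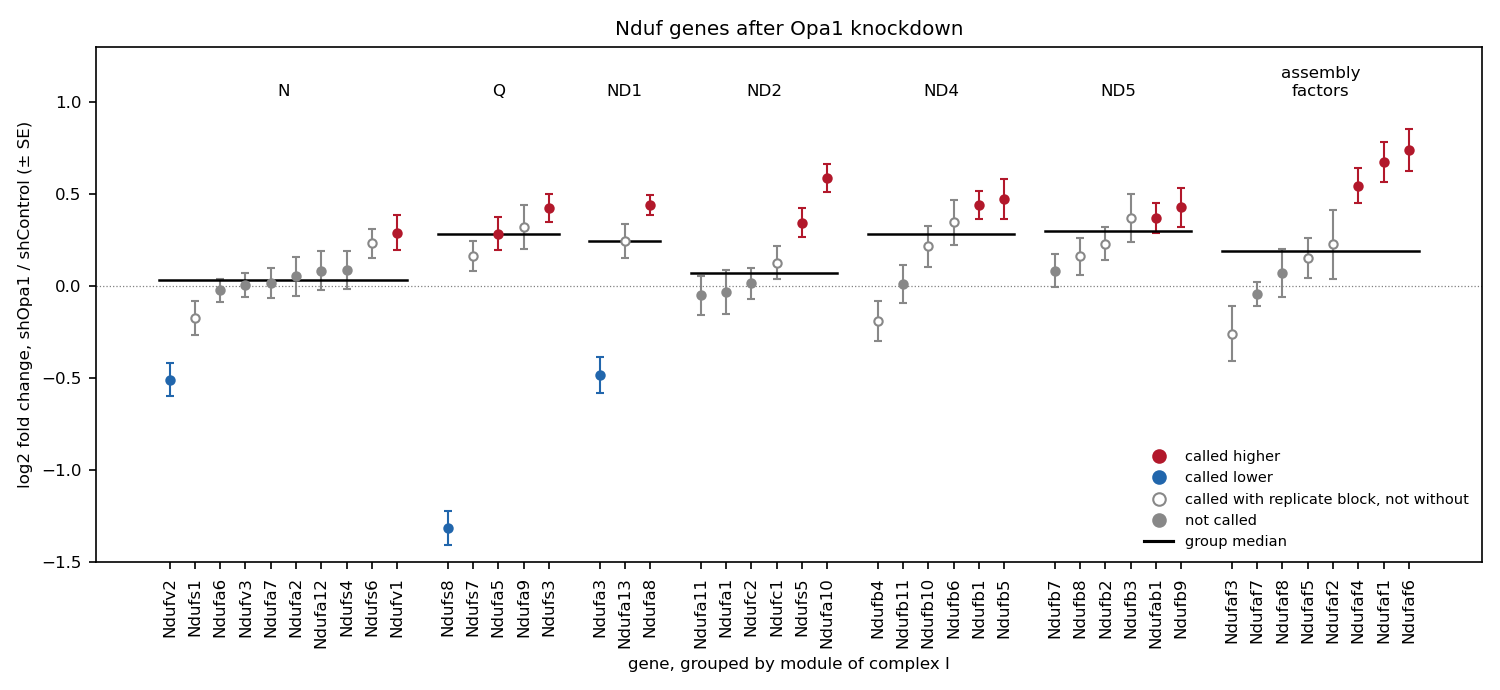
Log2 fold change (shOpa1 over shControl, ± SE) of the subunits by module (1 not shown) and of the 8 assembly factors, from the edgeR fit without a block, with a line at each group's median. Ndufs8 lies far below every other gene at -1.31, the N and ND2 module medians lie near 0 and the other modules between 0.25 and 0.30.

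The Q module joins the electron chain to ubiquinone, and it held the steepest fall of any nuclear subunit and rises of other members. Ndufs8 encodes the core subunit that carries a pair of iron-sulfur clusters on the way to ubiquinone. Its transcript stood at 53.8, 58.3 and 53.7 CPM in shControl and at 22.4, 24.5 and 19.8 CPM in shOpa1. Every shOpa1 library lay under the lowest shControl library by a wide margin. Group means were 55.3 ± 2.62 and 22.3 ± 2.35 CPM (SD, n = 3), a 2.48-fold fall with a log2 fold change of -1.31 ± 0.09 (SE, edgeR adjusted p = 0.000101). The differences in pairs 1, 2 and 3 were -1.25, -1.23 and -1.41. Ndufs8 (ENSMUSG00000059734) lies on the minus strand at chr19:3908863-3912774 (GRCm38) and shares no exon base with another gene of the annotation used for counting.

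Ndufs8 is 1 of 2 Nduf genes, among 44 with a 3' untranslated region of at least 50 bases, that hold the 7 bases GAAACTA there. That sequence had been picked in earlier work on these same fold changes for being carried by genes that fell, so its presence is a description. Over all genes with such a region, 1334 of 13850 (9.63%) held it, beside 4.55% of the Nduf genes. The median region length was 1236 bases over all those genes and 235 bases over the Nduf genes. Carriers had a median log2 fold change of -0.42 and the others 0.02. This gap was built in by how the sequence was picked, so it is no evidence. The sequences are shown because the carriers moved in opposite directions, and the third line is the stretch of the Opa1 coding sequence that holds the same bases. In Ndufs8 (exon 7 of 7, minus strand) the site is at base 60 of an 80-base region, chr19:3908877-3908883. In Ndufaf4 (exon 3 of 3, plus strand) it is at base 1301 of 3026, chr4:24903276-24903282, and in Opa1 (exon 14 of 29, plus strand) at chr16:29611584-29611590. Capitals mark the 7 bases, transcript strand, 5' to 3', from GENCODE M21 on GRCm38.
Ndufs8: ccctttagcccataaaGAAACTAtgatccc
Ndufaf4: atctagttccagtgaaGAAACTAtccctac
Opa1: ggctcccgacacaaagGAAACTAttttcag
The longest run that either Nduf site shared with the Opa1 stretch at this place was 8 bases. Ndufs8 fell, as given above, and the assembly factor Ndufaf4 rose by 0.55. The hairpin's own sequence was not used here.

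Rises were also found in the Q module. Ndufs3, a core subunit that holds the module together, stood at 67.5, 69.5 and 60.7 CPM in shControl and at 86.2, 94.0 and 85.3 CPM in shOpa1, without overlap. Its log2 fold change was 0.43 ± 0.08 (SE, edgeR adjusted p = 0.00422). The accessory subunit Ndufa5 rose by 0.29. Ndufs7, the core subunit with the last iron-sulfur cluster before ubiquinone, had a value of 0.16 and Ndufa9 one of 0.32, and both were called higher with the replicate block but not without it. The module's median was 0.28, and 0.27, 0.29 and 0.28 in the 3 pairs.

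In the N module, where NADH delivers its electrons, 1 of 10 genes rose and 1 fell, beside 18.9% and 20.0% of all genes tested. The median of the module was 0.04. Ndufv1, which binds the flavin, and Ndufv2, which sits beside it with an iron-sulfur cluster, form a pair of neighbouring core subunits and went in opposite directions. Ndufv2 transcript stood at 114.0, 116.0 and 110.3 CPM in shControl and at 80.7, 88.8 and 70.0 CPM in shOpa1. The groups did not overlap, and the means were 113 ± 2.87 and 79.8 ± 9.44 CPM (SD, n = 3). The fall was 1.42-fold, with a log2 fold change of -0.51 ± 0.09 (SE, edgeR adjusted p = 0.00441), and the pairs gave -0.50, -0.38 and -0.65. The gene (ENSMUSG00000024099) lies at chr17:66078638-66101559, minus strand. Ndufv1 stood at 162, 165 and 138 CPM in shControl and at 193, 205 and 172 CPM in shOpa1. The rise of 0.29 ± 0.10 (SE, edgeR adjusted p = 0.0460) passed the test narrowly and lost its call in 5 of 6 fits that left out 1 library, the exception being shOpa1 library 3.

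Ndufs1, the core subunit with most of the N module's clusters, had a value of -0.17 (edgeR adjusted p = 0.178) and was called lower with the block. Ndufs6, which holds a zinc ion, had a value of 0.23 and was called higher with the block. The other 6 genes of the module, Ndufv3, Ndufs4, Ndufa2, Ndufa6, Ndufa7 and Ndufa12, lay between -0.02 and 0.09 and were called by neither fit. The module's median was -0.01, 0.09 and 0.00 in the 3 pairs. It was below 0 without shControl library 3 (-0.01) and without shOpa1 library 2 (-0.02).

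The 5 nuclear core subunits that bind iron-sulfur clusters, Ndufv1, Ndufv2, Ndufs1, Ndufs7 and Ndufs8, had a median of -0.17, with 1 higher and 2 lower. Differences within the pairs had medians of -0.18, -0.16 and -0.17. These medians are the values of Ndufs1, the middle gene of the 5, which was called lower with the block but not without it. Ndufv1 and Ndufs7 lay above 0, so the medians show no fall shared by the 5 genes. All 7 nuclear core subunits, which include these 5, had a median of 0.16. That is the value of Ndufs7, which is also the middle gene of all subunits. The 30 accessory subunits had a median of 0.19, with 8 higher and 1 lower. Over the peripheral arm as a whole (N and Q modules) 4 of 16 genes rose and 2 fell. Over the membrane arm 7 of 21 rose and 1 fell. The shares called, 37.5% and 38.1%, lie near the 38.9% of all genes tested (18.9% higher and 20.0% lower). In pairs 1 and 2 alone the counts were 7 and 3 for the peripheral arm and 12 and 2 for the membrane arm. That fit called 24.8% of all genes higher and 26.1% lower. The difference between these classes was not tested. Ndufa4, the most abundant Nduf transcript though no subunit of the finished complex I, stood at 252, 276 and 223 CPM in shControl and at 224, 257 and 211 CPM in shOpa1. Its groups overlapped, and its value of -0.12 was called lower with the block but not without it.

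The ND1 module, where the arms meet, held 1 gene that rose, 1 that fell and 1, Ndufa13, that was called higher with the block but not without it. Without the block, 18.9% of all genes tested rose and 20.0% fell. Ndufa8, an accessory subunit of the intermembrane space with paired cysteines, stood at 94.7, 94.7 and 89.7 CPM in shControl and at 126.4, 126.2 and 126.7 CPM in shOpa1. The shOpa1 libraries were nearly equal and all above shControl, with a log2 fold change of 0.44 ± 0.05 (SE, edgeR adjusted p = 0.000904). Ndufa3, a small accessory subunit that crosses the membrane, stood at 74.9, 80.9 and 68.0 CPM in shControl and at 52.0, 59.6 and 48.8 CPM in shOpa1. Its groups did not overlap, and the log2 fold change of -0.48 ± 0.10 (SE, edgeR adjusted p = 0.00781) was -0.52, -0.44 and -0.48 in the 3 pairs. The gene (ENSMUSG00000035674) lies at chr7:3617373-3620327, plus strand. Ndufa13, also known as GRIM-19, had a value of 0.25, and 29.98% of its exon bases lie opposite Tssk6.

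In the ND2 module 2 of 6 genes rose, beside 18.9% of all genes tested. The other 4 lay between -0.05 and 0.13, of which Ndufc1 at 0.13 was called higher with the block but not without it. Ndufa10, an accessory subunit related to nucleoside kinases, had the largest rise of any subunit. It stood at 144.7, 144.7 and 132.0 CPM in shControl and at 213.0, 227.2 and 193.3 CPM in shOpa1, far apart. Means were 140 ± 7.31 and 211 ± 17.0 CPM (SD, n = 3), a 1.504-fold rise of this gene at chr1:92439010-92473860 (minus strand), with a log2 fold change of 0.59 ± 0.08 (SE, edgeR adjusted p = 0.00120). Ndufs5, which has paired cysteines like Ndufa8, stood at 59.2, 58.3 and 53.6 CPM in shControl and at 77.4, 67.2 and 73.0 CPM in shOpa1. It rose by 0.35 ± 0.08 (SE, edgeR adjusted p = 0.0106). Ndufa11, the lowest of the module, stood at 74.4, 74.1 and 62.7 CPM in shControl and at 68.4, 75.1 and 60.5 CPM in shOpa1. These groups overlapped, and the value of -0.05 turned to 0.07 when libraries were scaled by their totals alone and to 0.03 without shOpa1 library 3.

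The ND4 and ND5 modules form the far end of the membrane arm, and their medians of 0.28 and 0.30 were like that of the Q module. In the ND4 module 2 of 6 genes rose without the block and 4 with it, beside 18.9% and 28.8% of all genes tested. Ndufb5 stood at 79.6, 89.0 and 72.3 CPM in shControl and at 111.6, 123.7 and 99.3 CPM in shOpa1. Ndufb1 stood at 44.9, 45.6 and 42.9 CPM in shControl and at 60.1, 65.2 and 56.0 CPM in shOpa1. Neither gene's groups overlapped, and they rose by 0.47 ± 0.11 and 0.44 ± 0.08 (SE, edgeR adjusted p = 0.0112 and 0.00353). Reads over 12.3% of the exon bases of Ndufb5 and 12.7% of those of Ndufb1 cannot be told from the antisense genes Mrpl47 and Cpsf2. Ndufb4 was the lowest of the module at 46.6, 47.4 and 38.3 CPM in shControl and 40.1, 41.4 and 34.5 CPM in shOpa1. Its groups overlapped, and its value of -0.19 (edgeR adjusted p = 0.206) was called lower with the block (0.0105).

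In the ND5 module all 6 genes lay above 0 in every pair, 2 rose without the block and 5 with it. In the same order, the shares of all genes tested were 36.6%, 18.9% and 28.8%. Ndufab1 is the acyl carrier protein of mitochondria, which also serves fatty acid and iron-sulfur cluster synthesis. It stood at 52.5, 51.8 and 46.5 CPM in shControl and at 64.9, 70.0 and 60.1 CPM in shOpa1, and rose by 0.37 ± 0.08 (SE, edgeR adjusted p = 0.0111). Ndufb9, a subunit of the LYR protein family that the acyl carrier binds, stood at 77.8, 85.1 and 69.6 CPM in shControl and at 101.8, 117.0 and 94.4 CPM in shOpa1. Both genes had groups without overlap. The rise of Ndufb9 was 0.43 ± 0.11 (SE, edgeR adjusted p = 0.0156) and lost its call without shControl library 1 (0.0521) or shOpa1 library 2 (0.0539). A predicted gene on the same strand, Gm49356, shares 19.5% of its exon bases. Ndufb7 was the lowest of the module at 0.09 and was called by neither fit, with 57.2, 59.9 and 51.0 CPM in shControl and 57.7, 64.6 and 55.9 CPM in shOpa1.

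**Figure D2:**
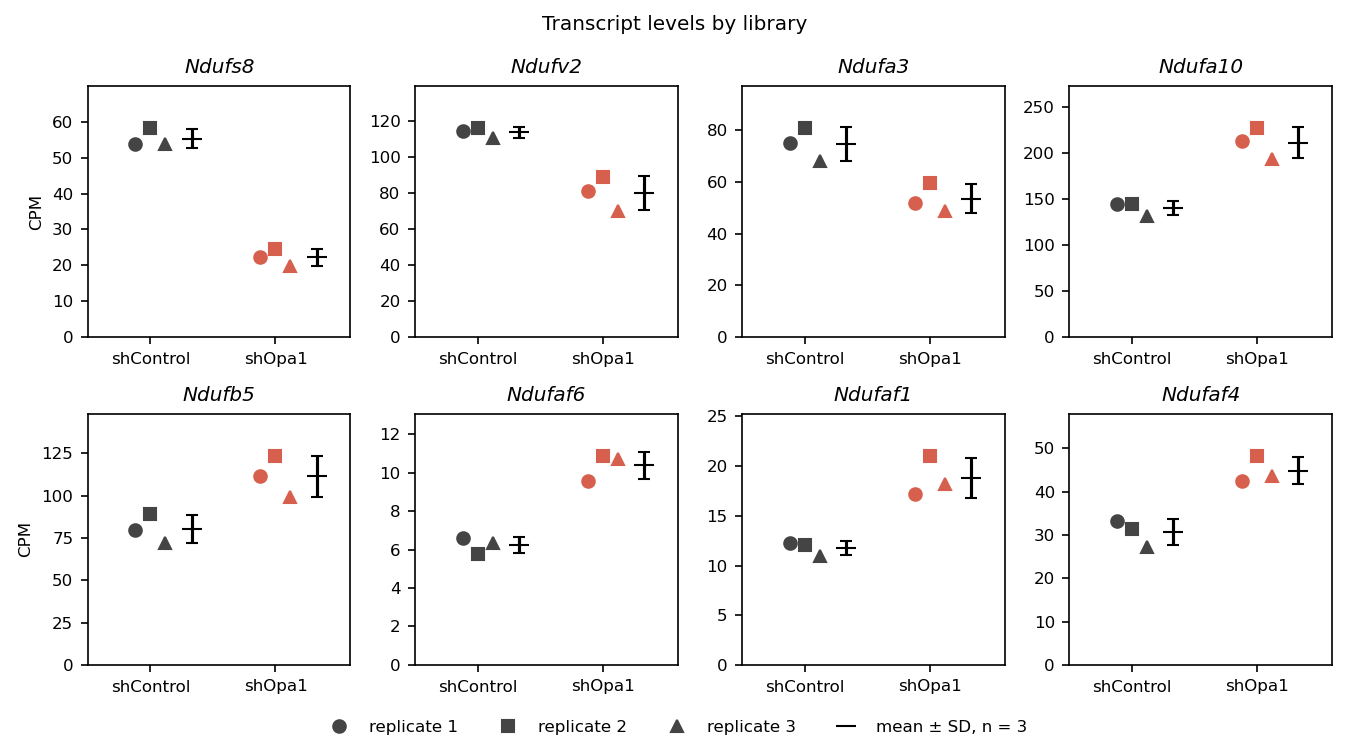
CPM (TMM-scaled library sizes) of 5 subunits and 3 assembly factors in each of the 6 libraries, with symbols for replicate numbers and bars for the mean ± SD of 3 libraries. Ndufs8, Ndufv2 and Ndufa3 lie lower in every shOpa1 library than in any shControl library, and the other 5 genes lie higher.

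The 3 pairs placed the module medians alike. Across pairs 1, 2 and 3 the ND4 module had medians of 0.29, 0.29 and 0.26, the ND5 module 0.26, 0.33 and 0.30, the ND1 module 0.26, 0.23 and 0.24, and the ND2 module 0.10, 0.09 and 0.08. Each of these was above 0 in every pair, the ND2 module by no more than 0.10. The N module had medians of -0.01, 0.09 and 0.00, so the N and ND2 modules both lay near 0. Modules hold 3 to 10 genes, and no test compared them.

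**Figure D3:**
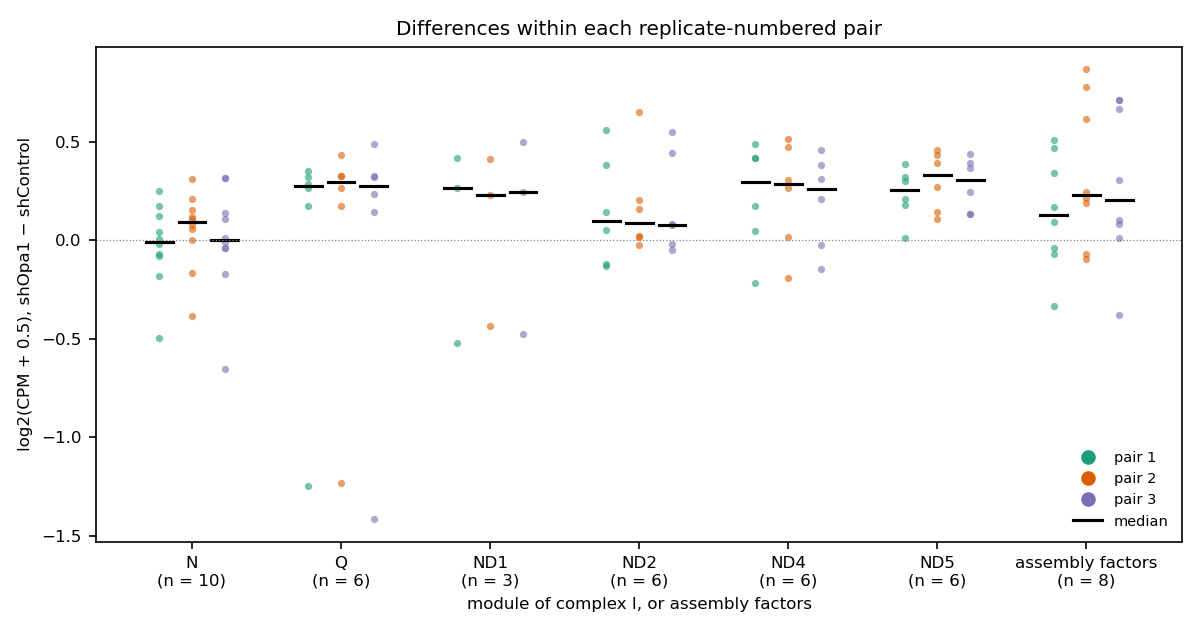
Difference in log2(CPM + 0.5) between the shOpa1 and shControl library of the same number, 1 point per gene, for 6 modules and the assembly factors, with a line at each pair's median. The lowest point of the Q module is Ndufs8 in each pair, and the medians of the Q, ND1, ND4 and ND5 modules lie between 0.23 and 0.33 in all pairs.

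Assembly factors with the Nduf name included the largest rises of all Nduf genes. Ndufaf6, needed at an early step for the ND1 part, stood at 6.58, 5.75 and 6.34 CPM in shControl and at 9.57, 10.9 and 10.7 CPM in shOpa1. Ndufaf1, a member of the assembly complex that helps build the ND2 part, stood at 12.3, 12.1 and 11.0 CPM in shControl and at 17.2, 21.1 and 18.2 CPM in shOpa1. Ndufaf4, which acts on the early Q module, stood at 33.3, 31.4 and 27.3 CPM in shControl and at 42.4, 48.3 and 43.6 CPM in shOpa1. All 3 genes had every shOpa1 library above every shControl library. They rose by 0.74 ± 0.12, 0.68 ± 0.11 and 0.55 ± 0.10 on the log2 scale (SE, edgeR adjusted p = 0.00246, 0.00279 and 0.00388), or 1.67-fold, 1.598-fold and 1.46-fold.

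Ndufaf3, which works together with Ndufaf4, did not rise with it. It stood at 35.7, 32.5 and 28.2 CPM in shControl and at 28.2, 30.9 and 21.5 CPM in shOpa1, with overlap. Its value of -0.26 ± 0.15 (SE, edgeR adjusted p = 0.218) was called lower with the block (0.00861), and it was -0.34, -0.07 and -0.38 in the 3 pairs. Ndufaf5, which modifies Ndufs7, and Ndufaf2, which acts late on the N module, had values of 0.15 and 0.23 and were called higher with the block but not without it. For Ndufaf2, 65.6% of the exon bases lie opposite another transcript. Ndufaf7, a methyltransferase, and Ndufaf8, a partner of Ndufaf5, had values of -0.04 and 0.07 and were called by neither fit. The medians over the 8 factors were 0.13, 0.23 and 0.20 in the 3 pairs, and they lay between 0.07 (without shControl library 3) and 0.30 (without shOpa1 library 3) when 1 library was left out.

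Of 12 further genes listed as complex I assembly genes without the Nduf name, 5 rose and 3 fell. Over all genes tested, 18.9% rose and 20.0% fell. Sfxn4, a sideroflexin needed for the complex, had the largest change, from 6.12, 5.27 and 6.12 CPM in shControl to 15.0, 16.1 and 13.4 CPM in shOpa1. Its log2 fold change was 1.35 ± 0.12 (SE, edgeR adjusted p = 0.000269). Nubpl, which delivers iron-sulfur clusters to the complex, rose by 0.54, Foxred1 by 0.42, Tmem126a by 0.41 and Ecsit by 0.40. Tmem70, which acts on complex I and ATP synthase, fell by 0.54, Acad9 by 0.40 and Tmem126b by 0.26. Without shControl library 1, shControl library 2 or shOpa1 library 1, and with scaling by library totals alone, 1 of these 3 falls was called. Pairs 1 and 2 alone gave 6 higher and 3 lower, beside 24.8% and 26.1% of all genes in that fit.

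Ndufaf1, Ecsit, Acad9 and Tmem126b work in a single assembly complex, and they moved in both directions. Ecsit stood at 39.5, 40.9 and 34.2 CPM in shControl and at 51.6, 51.6 and 48.1 CPM in shOpa1. Acad9 stood at 36.3, 41.4 and 32.0 CPM in shControl and at 27.0, 30.2 and 26.0 CPM in shOpa1. Tmem126b stood at 30.4, 29.2 and 30.1 CPM in shControl and at 24.8, 23.6 and 26.7 CPM in shOpa1. For each of these, as for Ndufaf1, the groups did not overlap, with Ndufaf1 and Ecsit higher and Acad9 and Tmem126b lower. Over all genes tested, 25.8% had every shOpa1 library above every shControl library and 26.0% had every one below. The genes shown here are all called ones. Tmem186 (0.13) and Timmdc1 (0.12), also listed as assembly genes, were not called.

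The mitochondrially encoded core subunits fell, 7 of 7, beside 20.0% of all genes tested. Each fell by more than any nuclear subunit other than Ndufs8. Summed over mt-Nd1 to mt-Nd6 and mt-Nd4l, they stood at 17914, 23231 and 14526 CPM in shControl and at 7479, 8417 and 5817 CPM in shOpa1. The 5 abundant genes, mt-Nd1, mt-Nd2, mt-Nd4, mt-Nd5 and mt-Nd6, had log2 fold changes between -1.44 and -1.22, and the falls were 2.34-fold to 2.72-fold. In Ndufs8, encoded in the nucleus, the fall was 2.48-fold. The other two, mt-Nd3 and mt-Nd4l, had 5 to 84 counts per library and add little. Without shControl library 2 or 3 or shOpa1 library 1 or 3, 6 of the 7 were called. In pairs 1 and 2 alone all 7 were called lower, beside 26.1% of all genes in that fit. All mitochondrial transcripts together made up 3.19% to 5.31% of counts in shControl and 1.59% to 2.38% in shOpa1. Overlapping mitochondrial genes on opposite strands cannot be told apart in these counts.

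Levels per gene length (RPKM, with the deposited length) put the subunits well above the assembly factors in shControl. The median was 46.2 RPKM over the subunits, with a range of 7.30 to 128, and 7.98 over the assembly factors, with a range of 4.77 to 18.3. Among the subunits, Ndufa1 had the highest level at 128 ± 18.0 RPKM (SD, n = 3; 108 to 139), followed by Ndufa8 at 108 ± 3.33 (104 to 110). The ranges of these 2 overlapped. The lowest subunits were Ndufab1 at 7.30 ± 0.48 and Ndufb2 at 8.10 ± 0.67 RPKM. The deposited length counts every exon base of a gene, 6883 for Ndufab1 and 5628 for Ndufb2, which lowers their values. With the median length of the coding transcripts, the medians were 89.9 and 13.0 RPKM, Ndufa6 led the subunits at 189, and Ndufb2 was the lowest at 18.9.

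The order of the subunits by RPKM changed most for the 3 that fell. Among 37, Ndufs8 went from place 21 in shControl to 33 in shOpa1, Ndufv2 from 17 to 28 and Ndufa3 from 10 to 20. Ratios between subunits of the same module moved likewise. The ratio of Ndufs8 to Ndufs7 per length was 1.05, 1.09 and 1.14 in shControl and 0.388, 0.407 and 0.382 in shOpa1. The ratio of Ndufv2 to Ndufv1 was 0.902 ± 0.068 in shControl and 0.516 ± 0.016 in shOpa1 (SD, n = 3), and that of Ndufa3 to Ndufa8 was 0.675 ± 0.041 and 0.356 ± 0.038. In none of the 3 ratios did the groups overlap. The numerators were the 3 subunits called lower, and Ndufs7, Ndufv1 and Ndufa8 had log2 fold changes of 0.16, 0.29 and 0.44. The ratios and places therefore restate the fold changes given above and are no further evidence. A ratio alone shows that the 2 transcripts changed unequally and not which of them did.

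**Figure D4:**
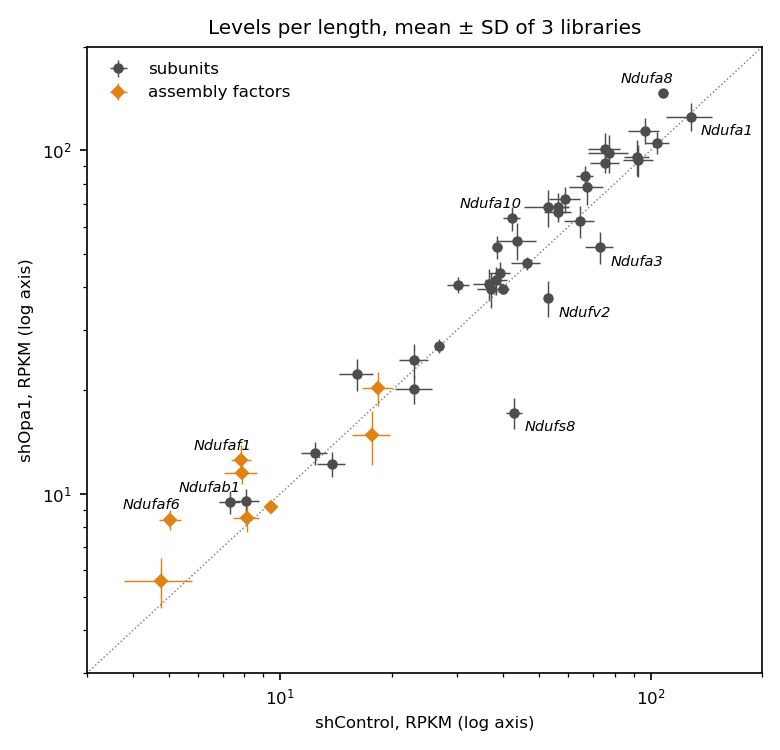
Mean level per length (RPKM, log axes, ± SD of 3 libraries) of the 37 subunits and 8 assembly factors in shControl (horizontal) and shOpa1 (vertical), with a dotted line where both are equal. Ndufs8, Ndufv2 and Ndufa3 lie below the line, as do some genes not called without the block, such as Ndufs1 and Ndufb4. The assembly factors lie at or under 18.3 RPKM in shControl.

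Apart from the knockdown, the subunits shared a difference between libraries of 1 group. Library 3 was the lowest of its group for 35 of 37 subunits in shControl and for 34 of 37 in shOpa1, where 41.4% and 41.8% of all tested genes had their lowest value. The subunits' median difference of library 3 from the mean of libraries 1 and 2 was -0.19 on the log2 scale in shControl and -0.21 in shOpa1, beside -0.01 and 0.00 over all genes. The assembly factors had library 3 lowest for 7 of 8 genes in shControl and for 4 of 8 in shOpa1. This difference is about as large as the median rise of the subunits after knockdown, and the replicate block removes it from the residual spread. Its cause was not tested.

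Promoters of the Nduf genes were searched for the letters of factors known from mitochondrial genes, within a window from 250 bases before to 50 after the start (RefSeq, GRCm38.p6), found for 41 members and 17491 coding genes. The motifs of 4 factors were searched on both strands. The 10-letter palindrome of NRF1 was in 3 member windows (7.32%, beside 1.47% of all windows), in Ndufa11, Ndufaf4 and Ndufaf5. The ETS or GABP letters CCGGAAG were in 6 (14.6%, beside 12.9%). The YY1 letters AAGATGGC were in 8 (19.5%, beside 3.57%), in Ndufa3, Ndufa9, Ndufaf8, Ndufb8, Ndufc1, Ndufs4, Ndufs6 and Ndufs7. The CREB or ATF letters TGACGTCA were in 3 (7.32%, beside 2.54%), in Ndufa10, Ndufa11 and Ndufb2. The last 3 letters of CCGGAAG are the first 3 of AAGATGGC, but no member window held overlapping matches. A match is not a bound site.

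Carriers of the letters included genes that rose and genes that fell. Of the 8 genes with the YY1 letters, Ndufa3 fell and the others were not called without the block, with a median of 0.15. Of the 3 with the CREB or ATF letters, Ndufa10 rose, Ndufb2 had a value of 0.23 and Ndufa11 one of -0.05. Of the 3 with the NRF1 palindrome, Ndufaf4 rose. Ndufs8, Ndufs3 and Ndufaf1 hold the ETS or GABP letters, and the first fell while the other two rose. The stretches below are printed for Ndufa10, the subunit with the largest rise, which holds the CREB or ATF letters, and for Ndufa3, the carrier of the YY1 letters that fell, in the gene's own direction, with the motif in capitals. They lie at chr1:92473807-92473836 (minus strand, motif starting 67 bases before the RefSeq start) and chr7:3617384-3617413 (plus strand, motif starting at base 23 from it). The Ndufa10 stretch lies inside the gene bounds given above, because the annotation used for counting starts that gene further upstream than RefSeq.
Ndufa10: acactcagtggTGACGTCAtggcagcgcgc
Ndufa3: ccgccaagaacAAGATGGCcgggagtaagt
All 8 matches to the YY1 letters began at base 11 to 39 from the start, and the letters contain ATG, so whether a match is the start codon of the gene was not tested.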

How the data were processed

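RNA was measured in 6 libraries, 3 shControl and 3 shOpa1, grouped by the sample labels. The deposited raw counts per gene were made with featureCounts 1.6.0 on read pairs, using the Ensembl 99 annotation (GRCm38) and no strand option, per the file headers. HISAT2, DESeq2 and the build mm10 are named without versions in the submitters' processing notes. The authors' deposited comparison table gives log2 fold changes, p-values, a score (fold change over its error) and normalised counts (a signal scaled per library). Its log2 fold changes differ for 0 genes by over 1e-05 from DESeq2 1.42.0 run with the libraries numbered 3 set as another batch.

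Of 55471 rows, 55144 were paired with a symbol, 0 lacked an identifier, and 0 columns lacked a sample. Totals were 24676709 to 32961580 counts per library. Libraries of a group differed by more than sampling noise (chi-square per degree of freedom 6.11 to 30.8), so none was a second sequencing of another. Whether libraries came from the same RNA or culture cannot be told from this, because such libraries can also differ by more than sampling noise.

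Groups were compared in edgeR 4.0.16 under R 4.3.3: TMM scaling, default low-count filter, robust quasi-likelihood test of shOpa1 against shControl, Benjamini-Hochberg adjustment over all genes at 0.05. Standard errors are the log2 fold change over the square root of F. Pair differences used log2(CPM + 0.5), and RPKM used the deposited gene length. After subtracting group means, libraries sharing a number correlated at 0.595, 0.608 and 0.714, and no library correlated better with another number. Equal numbers were therefore treated as pairs, which the labels do not state.

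The genes, modules, lists and tests were chosen with earlier results of these data known. Library values are printed for called genes with a log2 fold change of at least 0.3 in size, called assembly factors, and the highest and lowest gene of each module and of the assembly factors. Library values of Ndufa4, Sfxn4, Ecsit, Acad9, Tmem126b and the mitochondrial genes fall outside that rule and were chosen after they were seen. Motifs and sites were searched in RefSeq promoters and in the longest coding-transcript 3' regions of GENCODE M21. Values of 1 member are not reported here, though it is counted. The fits were tested on simulated data with few changed genes and no difference between replicate numbers. That test therefore does not check the fits where they disagree over the replicates. Alternatives used RLE scaling, library totals, no filter, DESeq2, limma-voom (limma 3.58.1), a replicate block, a second batch, pairs 1 and 2 alone, and each library left out. The batch fit in DESeq2, the exon overlap limit of 10% and the coding-transcript length were added after the data had been seen. Scripts ran in Python 3.11.15.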

Additional observations from a re-analysis of the deposited data

How the results depend on the processing

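The 19 genes chosen by the rule for library values kept their direction under RLE scaling, no filter, DESeq2, limma-voom, the replicate block, the second batch and pairs 1 and 2 alone. Ndufa11 turned from -0.05 to 0.0735 with library totals alone and to 0.0268 without shOpa1 library 3, its range over the libraries left out being -0.127 to 0.0268. Scaling by library totals alone moved the medians to 0.29 for subunits, 0.31 for assembly factors and 0.16, 0.41, 0.37, 0.20, 0.41 and 0.42 for the N, Q, ND1, ND2, ND4 and ND5 modules, and gave 19 subunits higher and 1 other assembly gene lower. With the replicate block 4770 genes rose and 5081 fell, with 21 and 5 subunits and 5 and 1 assembly factors among them. With replicate 3 as a second batch, 20 subunits rose and 5 fell, and 5 assembly factors rose and 1 fell. DESeq2 with that batch gave 20 subunits higher and 1 assembly factor lower, and DESeq2 without it an ND2 median of 0.0825. Pairs 1 and 2 alone gave 19 and 5 subunits, a subunit median of 0.18 and an ND2 median of 0.10. Subunits with at most 10% exon overlap had a median of 0.15. Without division by length the subunit median in shControl was 70.4 CPM, and with transcript lengths 89.9 RPKM. The causes of these shifts were not tested.

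Leaving out each library gave 7 to 17 subunits higher and 3 lower, 2168 to 3168 genes higher and 2421 to 3458 lower, and 5 to 6 other assembly genes higher and 1 to 2 lower. Medians then ranged from 0.11 to 0.25 (subunits), 0.0713 to 0.30 (assembly factors), -0.0191 to 0.0925 (N, -0.0092 without shControl library 3), 0.22 to 0.34 (Q), 0.17 to 0.32 (ND1), 0.0137 to 0.13 (ND2), 0.20 to 0.38 (ND4) and 0.21 to 0.36 (ND5). With 3 libraries a group, smaller differences may go uncalled, and mt-Nd3 and mt-Nd4l are limited by 5 to 84 counts.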
